A study of Mus musculus with 69 samples.

Results

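Allele-specific expression was examined in bone marrow-derived macrophages (BMDMs) of F1 mice from a cross of C57BL/6J (C57) and SPRET/EiJ (SPRET), a wild-derived inbred strain of another mouse species, after 24 h of IL-4. The members were all genes whose deposited TPM (a transcript level scaled to depth and length, weighted for each allele by the authors) averaged at least 5 over the C57 and SPRET columns of the 2 IL-4 libraries. This held for 7871 of the 24527 genes listed. The rule used the mean level only, so a gene could enter through 1 allele while the other was at 0. Ubox5, Slc35a3 and Cd2ap lay just inside this limit and Eif2ak2, Fastkd5 and Mt3 just outside, all with means of 5.00.

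The study compared the response to IL-4 between inbred strains, and used F1 hybrids to separate effects that act on one allele from those that act on both. BMDMs were grown from the bone marrow of young adult female mice with M-CSF, and were left untreated (basal) or given IL-4 at 20 ng/ml. The F1 cells had 2 basal libraries and 2 IL-4 libraries of poly(A) RNA, and each library had a C57 and a SPRET column. The parental C57 and SPRET strains had 3 IL-4 libraries each in a separate table. The study describes its RNA libraries as biological replicates. Whether they came from separate animals is not given in the sources used here, so p-values measure the spread between these libraries. The direction of the cross is not given in the sources used here.

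In a hybrid cell, both copies of a gene share one nucleus and thus the same transcription factors, cytokine receptors and signals. True differences between alleles can therefore be traced to the chromosome itself, to its sequence (cis) or, at imprinted genes and on the X chromosome, to its parental origin or silencing. A measured difference also depends on how reads are assigned to the alleles. IL-4 activates macrophages through the IL-4 receptor and STAT6, and drives genes of arginine metabolism, chitinase-like proteins, lectin receptors and type 2 chemokines, a program called alternative activation.

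The SPRET column of IL-4 library 2 stood apart from the other 7 F1 columns. TPM values of low genes rose in whole steps, and the column held 11.1 M such steps (M, 1e+06) against 4.69 M to 5.43 M in the others. The number of reads behind 1 step is not stated, so no counting intervals are given. It listed 35.3% of genes at 0, against 40.3% to 42.8%, and the ribosomal RNA gene Rn45s had 6977 TPM there and 0 in the other 7 columns. In all, 126 genes reached 5 TPM in this column alone, and at most 9 did so in any other column. Among the 7871 genes, the SPRET values of the 2 IL-4 libraries lay within 1.5-fold of each other for 6594 (83.8%), and the C57 values for 7616 (96.8%). Allele differences were smaller in library 2. For the 229 genes called C57-higher in the basal libraries, the median log2 difference was 1.60 and 1.54 in the basal libraries, 1.44 in IL-4 library 1 and 1.00 in IL-4 library 2. For the 321 called SPRET-higher, it was -1.77 and -1.64, then -1.69 and -1.24. Counts of calls in gene groups are therefore also given for library 1 alone. With 1 IL-4 library, the spread in that test comes from the basal libraries, and the IL-4 library is assumed to vary like them.

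The cells carried macrophage transcripts. The 11 macrophage markers summed to between 23435 and 37941 TPM over the 4 IL-4 columns, whereas 10 neutrophil markers summed to between 11.98 and 27.9, 12 lymphocyte markers to between 2.49 and 5.34 and 8 stromal markers to between 0.342 and 3.22. Most of the macrophage sum came from Lyz2, which has a close copy, and Cd68. Fcgr1 and Mertk were low, with at most 5.57 and 2.48 TPM. The 8 dendritic cell markers summed to between 185 and 514, most of it from Bst2. The F1 values were scaled to the genomic span of a gene, so the marker sums give orders of magnitude, and single values are not compared between genes or with parental levels.

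Both alleles were expressed at similar levels for most genes. The median log2 difference of C57 minus SPRET on the log2(TPM + 1) scale was -0.03, and 90.6% of genes lay within 2-fold. At a fold change over 2 and an adjusted p under 0.05 (limma, Benjamini-Hochberg over the 7871 genes), 410 genes were called, or 5.21%. The C57 allele was higher for 167 (2.12%) and the SPRET allele for 243 (3.09%), so that 40.7% of calls favoured C57. Under quantile normalization of the columns this share was 51.0%, with 213 and 205 genes. Library 1 alone called 162 (2.06%) and 193 (2.45%), and library 2 alone 78 (0.991%) and 268 (3.4%). The called differences had a median size of 1.33 (range, 1.00 to 6.36) for C57-higher genes and of 1.91 (range, 1.00 to 9.63) for SPRET-higher genes.

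In all 410 called genes, the 4 values of the alleles did not overlap. Such separation alone was common, with 2142 genes (27.2%) C57-higher and 2245 (28.5%) SPRET-higher. In 136 of the 167 C57-higher and 203 of the 243 SPRET-higher genes, the difference was smaller in library 2. The SPRET value of library 2 lay between that of library 1 and both C57 values in 139 and 215 of them.

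**Figure D1:**
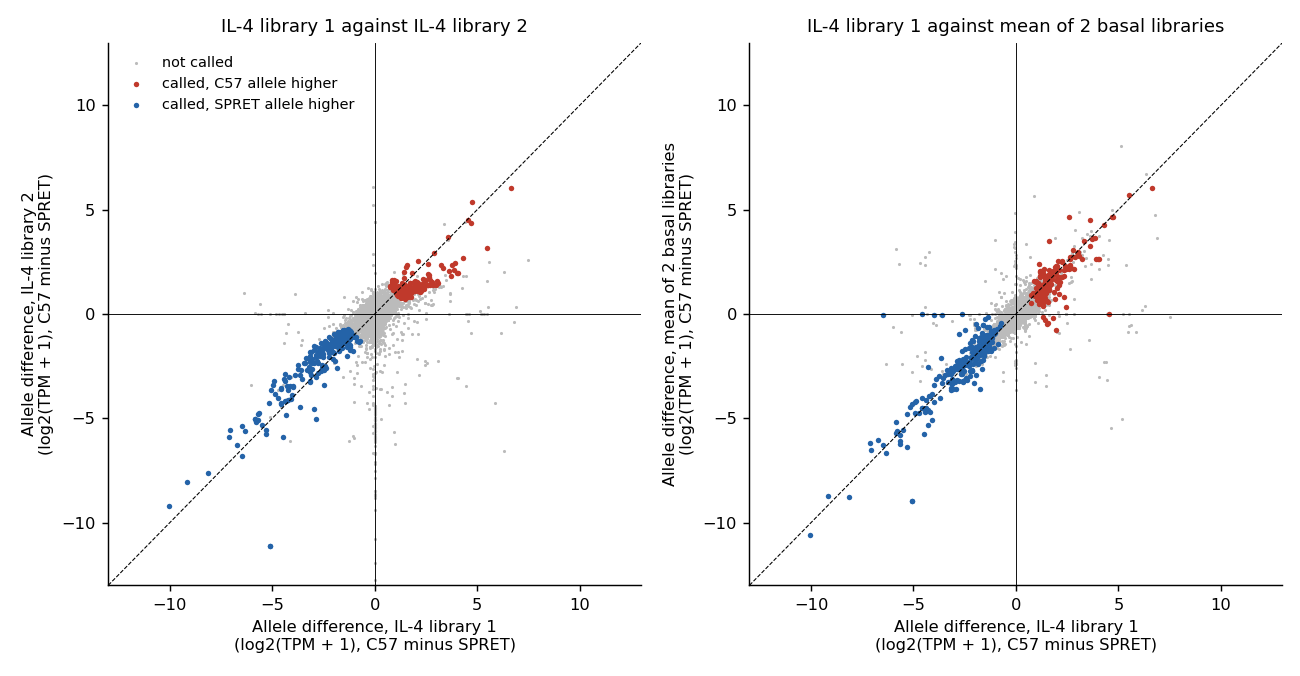
Allele differences of each gene (C57 minus SPRET, log2(TPM + 1)), with IL-4 library 1 on the x axis and IL-4 library 2 (left) or the mean of the 2 basal libraries (right) on the y axis. Points are genes, colored where called, and the dashed line marks equal differences; on the left most called genes fall between this line and 0, and a column of uncalled genes at 0 in library 1 is negative in library 2.

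Genes of the alternative activation program differed in how evenly the alleles carried them. Of the 30 tested, Chil3, Mgl2 and Vwf were C57-higher, and Ccl2, Fn1, Il27ra and Slc7a2 were SPRET-higher (23.3% called, against 5.21% of all genes). Library 1 alone called 4 and 3, without Mgl2 and Ccl2 and with Msx3 and Rbp4, a retinol carrier. The median difference of the 30 was -0.09 (-0.20 in library 1 alone), against -0.03 for all genes.

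Arg1 (chr10:24915207-24927470, mm10), which encodes arginase 1 and cleaves arginine, was induced on both chromosomes. Its C57 allele had 53.8 and 45.8 TPM after IL-4 and its SPRET allele 49.5 and 43.7. The values of the alleles were interleaved, and the difference was 0.09 ± 0.12 (SE; adjusted p = 0.627, limma). In basal cells, the 4 Arg1 values lay between 0.234 and 0.371. Retnla, a secreted resistin-like protein, was likewise listed at 0 in all 4 basal columns and at 1068 and 999.5 TPM on C57 and 1300.2 and 928 on SPRET after IL-4 (difference -0.09 ± 0.12, adjusted p = 0.651).

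Slc7a2 (chr8:40862367-40922070), a transporter that brings arginine into the cell, leaned to the SPRET allele. It had 31.2 and 34.3 TPM on C57 and 129 and 85.1 on SPRET. Both SPRET values were above both C57 values, with a difference of -1.65 ± 0.20 (adjusted p = 0.0246, and -2.01 in library 1). In basal cells, the SPRET allele already led, with 9.25 and 9.37 against 2.17 and 1.78, and the C57 allele rose by 3.50 and the SPRET allele by 3.36 on the log2 scale.

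Chil3 (chr3:106147554-106167564), a chitinase-like secreted protein, leaned to the C57 allele. It had 103 and 102 TPM on C57 and 17.9 and 32.2 on SPRET, a difference of 2.05 ± 0.24 (adjusted p = 0.0228, and 2.46 in library 1). The SPRET allele was listed at 0 in both basal libraries, so its listed value rose with IL-4. How Chil3 reads were assigned to the alleles was not tested. In the parental SPRET strain, Chil3 was at 0.570 ± 0.123 TPM (SD, n = 3) after IL-4, against 1749 ± 96.4 in C57.

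Among the lectin receptors, Mgl2, a galactose-binding lectin, had 51.8 and 41.4 TPM on C57 and 16.9 and 21.7 on SPRET (1.23 ± 0.22, adjusted p = 0.0482). Mrc1, the mannose receptor, had 50.4 and 53.5 on C57 and 73.1 and 64.9 on SPRET. Its difference of -0.40 did not pass the test (adjusted p = 0.0826). In the basal libraries, Mrc1 was called SPRET-higher, with 21.0 and 20.9 against 58.9 and 56.7 (-1.42). The C57 allele rose by 1.27 after IL-4 and the SPRET allele by 0.25. This change of the allele difference did not pass the test (adjusted p = 0.507).

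The matrix and adhesion genes of the program also split. Fn1, which encodes fibronectin, had 52.5 and 55.3 TPM on C57 and 167 and 129 on SPRET (-1.43 ± 0.13, adjusted p = 0.0185). Vwf, the von Willebrand factor of hemostasis, had 20.8 and 20.3 on C57 and 3.62 and 9.07 on SPRET (1.66 ± 0.30, adjusted p = 0.0461). Il27ra, a subunit of the IL-27 receptor, had 8.79 and 9.69 on C57 and 25.8 and 19.8 on SPRET (-1.21 ± 0.16, adjusted p = 0.0279). The alleles did not overlap for these genes. The Itgax alleles, which encode an integrin chain, also did not overlap, but differed by 0.44 ± 0.08, less than 2-fold.

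The type 2 chemokines Ccl17 and Ccl24 had higher SPRET values in both libraries without passing the test. Ccl17 had 11.9 and 4.75 TPM on C57 and 50.1 and 28.1 on SPRET (-2.16 ± 0.43, adjusted p = 0.0566). Ccl24 had 22.7 and 20.6 on C57 and 96.2 and 45.4 on SPRET (-1.57 ± 0.34, adjusted p = 0.0648). For Ccl22, which signals through the same receptor as Ccl17, the 53.1 TPM of the SPRET allele in library 2 lay below both C57 values, 58.4 and 54.3, while library 1 had 89.2 on SPRET.

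**Figure D2:**
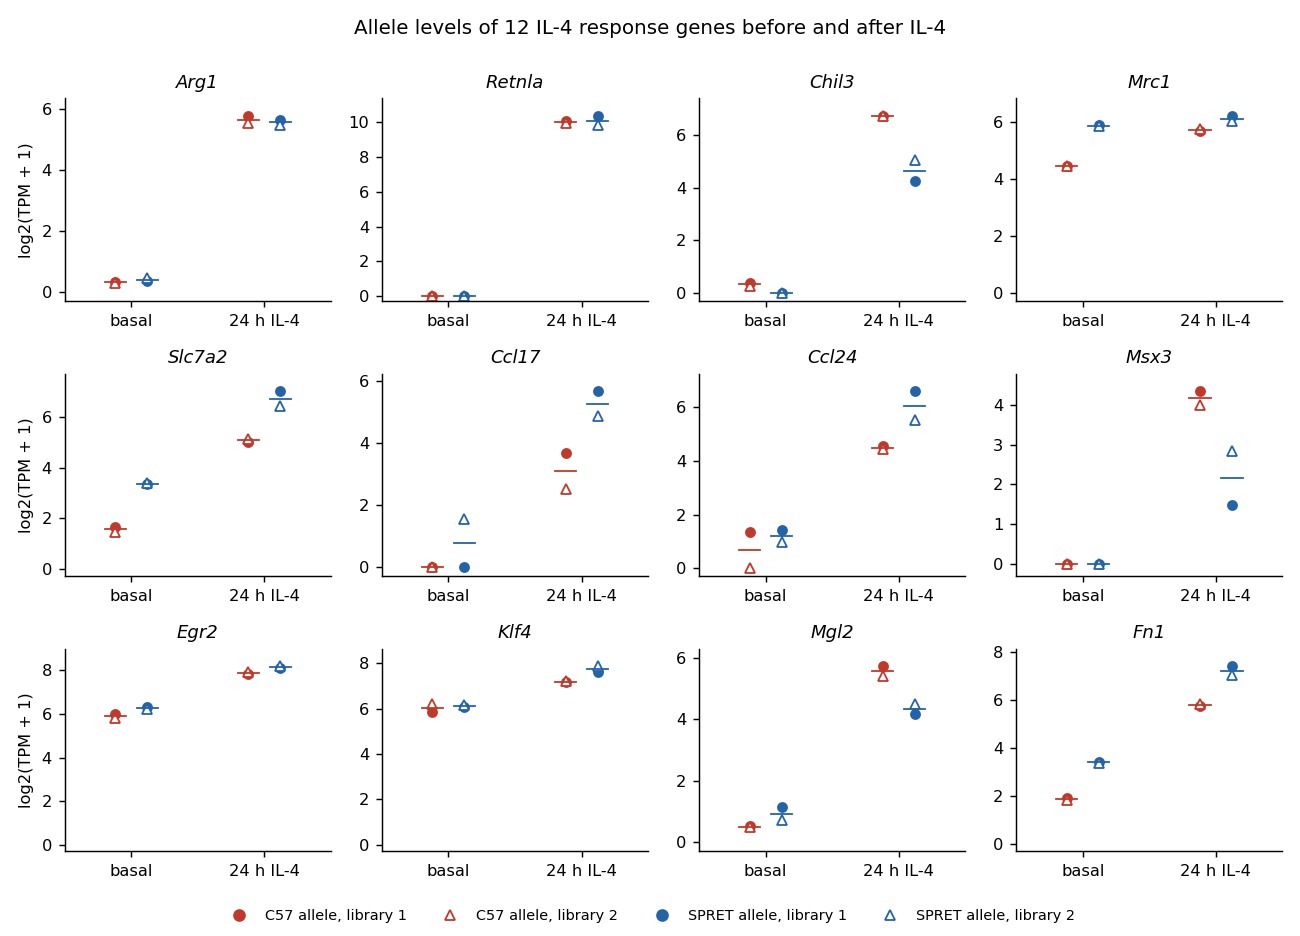
Values of the C57 (red) and SPRET (blue) alleles of IL-4 response genes in each basal and IL-4 library, as log2(TPM + 1), with bars at the mean of 2 libraries. Arg1 and Retnla reach similar levels on both alleles, whereas Chil3 and Msx3 end higher on C57 and Slc7a2, Ccl17, Ccl24 and Fn1 on SPRET.

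Msx3 (chr7:140046157-140049088), a homeobox transcription factor gene, was listed at 0 in all 4 basal columns. After IL-4, it had 19.3 and 14.97 TPM on C57 and 1.80 and 6.15 on SPRET. The alleles did not overlap, but with the library 2 value the difference of 2.01 ± 0.56 did not pass the test (adjusted p = 0.104, limma). In library 1 alone, the difference was 2.86. Since all basal values were 0, a test of library 1 alone takes its spread for Msx3 from other genes and cannot decide.

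In the IL-4 receptor pathway, none of the 19 receptor and STAT6 signalling genes was called, also in library 1 alone, and 94.7% of them lay within 1.5-fold, against 82.1% of all genes. Il4ra, the receptor chain that binds IL-4, had 15.3 and 13.8 TPM on C57 and 11.9 and 8.95 on SPRET (0.46 ± 0.10, adjusted p = 0.0653). Stat6, the main transcription factor of the pathway, had 91.2 and 94.8 on C57 and 119 and 110 on SPRET (-0.29 ± 0.09, adjusted p = 0.133).

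Of 35 transcription factors, Bhlhe41 alone was called (2.86%, against 5.21% of all genes). Of the 35, 77.1% lay within 1.5-fold, against 82.1% of all genes. Bhlhe41, a basic helix-loop-helix repressor, had 64.3 and 63.8 TPM on C57 and 152 and 182 on SPRET (-1.36 ± 0.11, adjusted p = 0.0145). In library 1 alone, Irf5 was called as well (C57-higher). Egr2, an early growth response factor, had 227 and 241 on C57 and 277 and 288 on SPRET (-0.27 ± 0.09, adjusted p = 0.129), up from 62.1 and 54.9 and from 78.5 and 74.4. Klf4, a Kruppel-like factor, differed by -0.54 ± 0.12 (adjusted p = 0.0680). Irf4 and Pparg, an interferon regulatory factor and a nuclear receptor, differed by -0.01 ± 0.16 and -0.10 ± 0.13. Btbd11 and Mtmr7, which the study names, were below the mean of 5.

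In antigen presentation, H2-Eb1 and H2-T23 leaned to the C57 allele. H2-Eb1, the beta chain of the class II molecule I-E, had 47.4 and 46.8 TPM on C57 and 19.4 and 20.4 on SPRET (1.20 ± 0.07, adjusted p = 0.0101). H2-T23, which encodes the nonclassical class I molecule Qa-1, had 866 and 850 on C57 and 293 and 338 on SPRET (1.44 ± 0.10, adjusted p = 0.0115). The libraries differed little for both genes. The other 8 class II and 12 class I genes were not called (11.1% and 7.69% called, against 5.21% of all genes). Each share stands for a single gene, and library 1 alone added H2-T22 (2.43). Ciita, the coactivator of class II genes, had 15.5 and 16.5 on C57 and 6.77 and 8.80 on SPRET (0.96 ± 0.10, adjusted p = 0.0208), just under 2-fold. Members of the H2 family resemble each other in sequence, and the part of shared sequence in these values was not tested.

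The chemokine with the largest C57 lead was Ccl6 (chr11:83587886-83593087), a CC chemokine of myeloid cells. It had 995 and 988 TPM on C57 and 68.1 and 232 on SPRET (2.97 ± 0.44, adjusted p = 0.0338, and 3.85 in library 1). The C57 values were nearly equal, and the SPRET value of library 2 was above that of library 1. The monocyte chemoattractant Ccl2 showed the opposite lead, with 55.0 and 50.8 on C57 and 153 and 134 on SPRET (-1.42 ± 0.22, adjusted p = 0.0348). Cxcl14 was also SPRET-higher, with 3.81 and 4.28 on C57 and 11.7 and 8.89 on SPRET (-1.15 ± 0.16, adjusted p = 0.0297). The other 14 of 17 chemokine and receptor genes were not called (17.6% called, against 5.21% of all genes). Ccl2 lost the call in library 1 alone (-1.46).

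Of 10 complement genes, 2 were C57-higher and 1 SPRET-higher (30%, against 5.21% of all genes), and 50% lay within 1.5-fold. C1qa, a chain of C1q that recognizes immune complexes, had 18.02 and 23.5 TPM on C57 and 0.903 and 4.31 on SPRET (2.77 ± 0.29, adjusted p = 0.0200). C1qb and C1qc, the other chains, had 141 and 141, and 149 and 134, on C57. On SPRET, they had 14.02 in library 1 for both, but 56.6 and 51.7 in library 2. With both libraries, these differences of 2.27 and 2.34 missed the threshold (adjusted p = 0.0630 and 0.0612), and in library 1 alone they passed it at 3.24 and 3.32 (adjusted p = 0.0325 and 0.0285). C3, the central component, was also C57-higher (1.24 ± 0.15), and Cd59a, which blocks the terminal attack complex, was SPRET-higher (-1.60 ± 0.18). The median of the 10 was 0.56, and library 1 alone called 3 C57-higher (the C1q chains) and 0 SPRET-higher.

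Of the 5 Fc receptor genes, 1 was called in each direction, also in library 1 alone (40%, against 5.21% of all genes). Fcgr2b, the inhibitory receptor, was C57-higher with 126 and 124 TPM against 55.7 and 63.0 (1.06 ± 0.09, adjusted p = 0.0170). Fcgrt, the neonatal receptor that recycles IgG, was SPRET-higher with 97.0 and 73.8 against 40.8 and 38.2 (-1.08 ± 0.11, adjusted p = 0.0195). Among 20 interferon-stimulated genes, Gbp2, Isg15 and Oas1a were C57-higher, and Bst2, which tethers virus particles to the cell surface, was SPRET-higher with 510.0 and 359 against 195 and 185. Isg15, a ubiquitin-like modifier, had 13.52 and 17.1 on C57 and 1.90 and 5.60 on SPRET (1.89 ± 0.30, adjusted p = 0.0376). The 4 calls were 20% of the list, against 5.21% of all genes, and the median of the 20 was -0.08. In library 1 alone, Oas1a and Bst2 were called, while Gbp2 and Isg15 had 1.11 and 2.33 (adjusted p = 0.101 for each).

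Tlr13, a sensor of bacterial ribosomal RNA, was C57-higher with 71.4 and 78.0 TPM against 20.4 and 43.4. It was the only call among 18 toll-like receptor genes (5.56%, against 5.21% of all genes), also in library 1 alone. None of 19 C-type lectins and scavenger receptors was called in both libraries or in library 1 alone. Itgb3, Mmp13 and Mmp8 were C57-higher among 16 integrins and matrix enzymes (18.8%, against 2.12% of all genes C57-higher), and Mmp8 alone in library 1. Mmp8, neutrophil collagenase, had 59.7 and 59.7 on C57 and 6.18 and 20.7 on SPRET (2.28 ± 0.41, adjusted p = 0.0461). Il10, an anti-inflammatory cytokine, had 11.03 and 11.99 on C57 and was listed at 0 on SPRET in both IL-4 and both basal libraries. It was the only call among 17 inflammatory genes (5.88%), and lost the call in library 1 alone.

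Shares of called genes differed between metabolic lists, from 6.67% in oxidative phosphorylation to 23.5% in glycolysis, against 5.21% of all genes. Among the calls in these lists, Gapdh, Pgam1, Gstp1 and Atp5g1 have close copies in the genome. Their values are uncertain, as described below, and so are the shares. Of 27 genes of lipid and cholesterol handling, Fabp5, a fatty acid binding protein, was C57-higher (1.08 ± 0.19) and Idi1, an isomerase of the sterol pathway, was SPRET-higher with 16.2 and 11.1 TPM against 1.48 and 0.739 (-2.80 ± 0.15, adjusted p = 0.00796). These were 7.41% of the list, and library 1 alone called Idi1 and Plin2. Of 17 glycolysis genes, Gapdh, Pgam1 and Pgk1 were SPRET-higher, and Hk3, a hexokinase, was C57-higher with 197 and 200.5 against 64.1 and 98.7 (1.31 ± 0.17), all also in library 1 alone. Of 22 antioxidant genes, Gstp1 and Gpx4 were SPRET-higher and Gstm1 and Gpx1 C57-higher (18.2%), of which Gstp1 and Gpx1 were called in library 1 alone. Gpx4, which detoxifies lipid peroxides, differed by -1.40 ± 0.14, and Gpx1, the main glutathione peroxidase, had 8697 and 7994 on C57 and 3889 and 4047 on SPRET (1.07 ± 0.08, adjusted p = 0.0145). Of 45 genes of oxidative phosphorylation, Atp5g1, Atp5j and Ndufs3 were called, all SPRET-higher, and Atp5g1 and Ndufs3 in library 1 alone. Cd63, a lysosomal tetraspanin, was the only call among 24 lysosomal genes (4.17%), also in library 1 alone. It had 1356 and 1389 on C57 and 342 and 462 on SPRET (1.79 ± 0.14).

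Outside these lists, the largest C57 leads among genes detected on both alleles included Mbd5, Med21, Mt2, Insl6 and Luc7l. Mbd5, a methyl-CpG-binding domain protein, had 52.3 and 49.0 TPM on C57 and 2.51 and 8.18 on SPRET (3.19 ± 0.37, adjusted p = 0.0231). Med21, a subunit of the Mediator complex, had 71.4 and 72.5 on C57 and 10.9 and 13.2 on SPRET (2.49 ± 0.18, adjusted p = 0.0115). Luc7l, an RNA splicing factor, had 56.5 and 52.3 on C57 and 10.3 and 15.5 on SPRET (2.02 ± 0.19, adjusted p = 0.0189). The SPRET value of library 2 was above that of library 1 in each. Mt2, a metallothionein that binds zinc, had 101 and 118 on C57 and 15.3 and 34.2 on SPRET (2.20 ± 0.23, adjusted p = 0.0204). Lrpap1, a chaperone of lipoprotein receptors, was SPRET-higher with 294 and 310 against 1007 and 646 (-1.42 ± 0.20, adjusted p = 0.0297), as was Atp6v0c, a subunit of the proton pump of lysosomes, with 385 and 406 against 1112 and 935 (-1.36 ± 0.14).

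**Figure D3:**
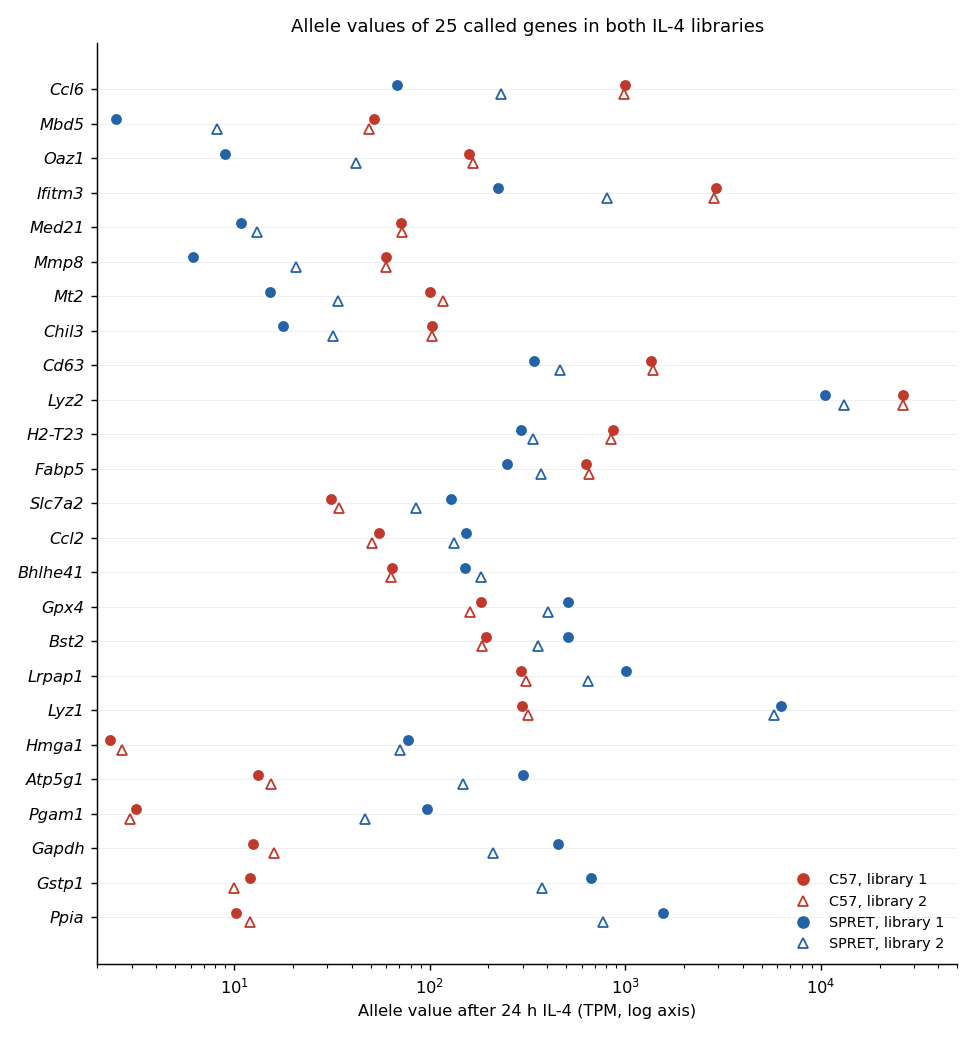
Values of called genes on the C57 (red) and SPRET (blue) alleles in IL-4 library 1 (filled circles) and library 2 (open triangles), in TPM on a log axis. The alleles are separated in every gene shown, and for Ccl6, Mbd5, Oaz1, Ifitm3 and Mmp8 the SPRET value of library 2 is the closer to C57.

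Several named genes with large differences have close copies elsewhere in the genome. Lyz2 (chr10:117277541-117282272), the lysozyme of macrophages, had 26471 and 26446 TPM on C57 and 10475 and 13158 on SPRET (1.17 ± 0.10, adjusted p = 0.0166). Its neighbor Lyz1 (chr10:117287795-117292868), a nearly identical lysozyme, had 296 and 319 on C57 and 6242 and 5798 on SPRET (-4.29 ± 0.09, adjusted p = 0.00356). In the parental strains, Lyz1 was at 17.3 ± 9.89 in C57 and 13044 ± 593 in SPRET (SD, n = 3).

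Ppia, a prolyl isomerase with many processed pseudogenes, had 10.2 and 12.1 TPM on C57 and 1563 and 773 on SPRET (-6.51 ± 0.31, adjusted p = 0.00694). Gapdh, a glycolytic enzyme with many such copies, had 12.5 and 16.0 against 454 and 212 (-4.36 ± 0.36). These genes are strongly expressed in most cells. The parental C57 libraries also listed Ppia at 0.796 ± 0.585 and Gapdh at 1.80 ± 0.392, against 692 ± 23.6 and 386 ± 16.1 in SPRET.

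Gstp1, a glutathione transferase next to its copy Gstp2, had 12.1 and 10.0 on C57 and 668 and 377 on SPRET (-5.39 ± 0.22). Pgam1, Atp5g1, H2afz, Lilra6 and Hmga1 belong to the same kind, with differences between -4.43 and -3.42. Hmga1 and Hmga1b are listed at overlapping positions and had nearly equal values. In the other direction, Oaz1 and Ifitm3 have close relatives, and had differences of 2.98 ± 0.52 and 2.76 ± 0.47. Gstm3, H2-Q1, Pira2 and Rtl8a were called with the C57 allele listed at 0, and had between 15.3 and 80.3 TPM on SPRET. How reads of such copies were assigned to alleles was not tested, and these values are uncertain.

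The share of called genes differed by gene class. It was 32.8% of 58 pseudogenes and 4.93% of 7322 protein-coding genes. In library 1 alone, 6 pseudogenes were C57-higher and 10 SPRET-higher, as were 141 and 162 protein-coding genes. By listed length, it was 12.7% between 200 and 2000 bases and 3.13% above 50000 bases. By listed value, which depends on the genomic span, 12.2% of genes with a mean above 200 TPM were called, against 3.85% of those between 5 and 10 TPM. In 99 genes, the C57 allele was listed at 0 in both libraries, and 12 of these were called, whereas the SPRET allele was at 0 in 14, of which 2 were called. The median difference of the 99 was 0 in library 1 and -5.25 in library 2. Most of them were thus at 0 on both alleles in library 1, and entered through the SPRET column of library 2. For the 14 genes, the medians were 4.46 and 1.78.

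Imprinted genes are expressed mainly from the copy of 1 parent. Of the 11 tested, Impact, Peg13 and Zrsr1, known as paternally expressed genes, were SPRET-higher (27.3%, against 3.09% of all genes SPRET-higher). In library 1 alone, none of them passed the test (adjusted p = 0.0503, 0.0535 and 0.112, with differences of -1.50, -2.23 and -1.21). Peg13, a noncoding RNA, had 9.31 and 8.76 TPM on C57 and 47.3 and 34.1 on SPRET (-2.04 ± 0.14, adjusted p = 0.0115). Zrsr1, a splicing factor gene, had 13.2 and 10.9 against 31.8 and 34.9 (-1.40 ± 0.16, adjusted p = 0.0228), and Impact, a translation regulator, differed by -1.23 ± 0.15 (adjusted p = 0.0258). In the parental strains, the differences of these 3 genes were -0.21, 0.48 and 0.51.

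Igf2r and Cdkn1c, known as maternally expressed, had higher C57 values. With both libraries they did not pass the test, and in library 1 alone they were called C57-higher (1.61 and 2.49, adjusted p = 0.0421 and 0.0489). Igf2r, which clears IGF2, had 27.7 and 29.8 TPM on C57 and 8.42 and 21.0 on SPRET (1.05 ± 0.28, adjusted p = 0.0975), and Cdkn1c, a cyclin-dependent kinase inhibitor, had 70.5 and 56.0 against 11.7 and 54.1 (1.27 ± 0.61, adjusted p = 0.246). The SPRET value of library 2 was again the closer to C57. Both alleles of these 5 genes had at least 5 TPM in every IL-4 column. Between the parental strains, Cdkn1c was also called C57-higher, and Igf2r was not called.

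On the X chromosome, 2 of 218 genes were C57-higher and 8 SPRET-higher (4.59%, against 5.23% of 7653 autosomal genes). In library 1 alone, 6 were called in each direction. The median difference was -0.21 (-0.12 in library 1) against -0.03 on the autosomes. Xist, the RNA that coats the inactive X, was expressed from both chromosomes, with 120.4 and 137 TPM on C57 and 97.5 and 112 on SPRET. None of 5 genes that escape X inactivation was called, also in library 1 alone.

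The alleles were then compared with the basal libraries of the same cross, to ask whether IL-4 changed the allele difference. Of the same 7871 genes, 229 were C57-higher and 321 SPRET-higher in basal cells (2.91% and 4.08%, 6.99% in all). Of the 167 genes C57-higher after IL-4, 121 were also called in basal cells (72.5%; 52.8% of the 229), and of the 243 SPRET-higher genes, 215 were (88.5%; 67% of the 321). None was called in the opposite direction. The 243 include genes with close copies, such as Gapdh and Gstp1, whose values are uncertain. Of the 162 and 193 calls of library 1 alone, 106 and 155 were also called in basal cells. Across the 7871 genes, the difference in IL-4 library 1 and in basal cells had a Pearson r of 0.75. It was 0.50 between IL-4 library 2 and basal cells, 0.73 between the 2 basal libraries and 0.49 between the 2 IL-4 libraries.

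No gene passed the test of a change in the allele difference (0 of 7871 at an adjusted p under 0.05, 0%). The lowest adjusted p was 0.401, and 497 genes (6.31%) had an unadjusted p under 0.05. Without IL-4 library 2, 19 genes passed (0.241%; 714 at an unadjusted p under 0.05), of which 12 were microRNA or small nucleolar RNA genes and 14 were at 0 in all 4 basal columns. Msx3 was among them, with a change of 2.86. Fbp1, a gluconeogenic enzyme named here after its values were seen, was another. It had 6.14 TPM on C57 and 43.8 on SPRET in library 1 and 0 in basal cells. Genes at 0 in all basal columns have no basal spread of their own, so the test cannot decide a change for these 14. Without IL-4 library 1, 130 genes passed.

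Some genes were called in basal cells and had nearly equal alleles after IL-4, without a tested change. Ccl9, a CC chemokine, was at 559.9 and 743 TPM on C57 and 176 and 253 on SPRET in basal cells (1.61), and at 1551 and 1597 against 1208 and 1712 after IL-4 (0.13 ± 0.14). Tgm2, a transglutaminase that cross-links proteins, was at 15.8 and 16.6 against 5.83 and 5.46 in basal cells (1.37), and at 15.9 and 16.7 against 13.6 and 12.4 after IL-4 (0.31 ± 0.10). For both, the SPRET allele rose more (2.76 against 1.29, and 1.07 against 0.01). The change of the allele difference had an adjusted p of 0.507 for each gene.

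Groups of genes that respond to IL-4 in the parental strains had shares of called alleles between 10.9% and 17.7%, against 4.3% for genes that do not. The response came from a separate time course of C57 and SPRET BMDMs at 24 h, in which 5.76% of 12088 genes were called in C57 and 5.62% in SPRET. Of 116 genes induced in SPRET and not called in C57, 17 were SPRET-higher in the F1 and 3 C57-higher (17.2%). Of 118 genes induced in C57 and not called in SPRET, 12 were C57-higher and 4 SPRET-higher (13.6%). Of 96 induced in both strains, 7 and 10 were called (17.7%), and of 6937 genes called in neither strain, 114 and 184 (4.3%). Of 125 genes repressed in C57 and not called in SPRET, 12 were C57-higher and 2 SPRET-higher (11.2%). Of 119 repressed in SPRET and not called in C57, 7 were C57-higher and 6 SPRET-higher (10.9%), and of 57 repressed in both, 3 and 4 (12.3%). Library 1 alone called 3 and 12 of the 116 genes, 11 and 5 of the 118, 7 and 10 of the 96, 13 and 3 of the 125, 10 and 2 of the 119 and 1 and 4 of the 57 (C57-higher first). In the groups of responding genes, medians lay between -0.25 and 0.17, and 56.2% to 71.4% of members lay within 1.5-fold.

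**Figure D4:**
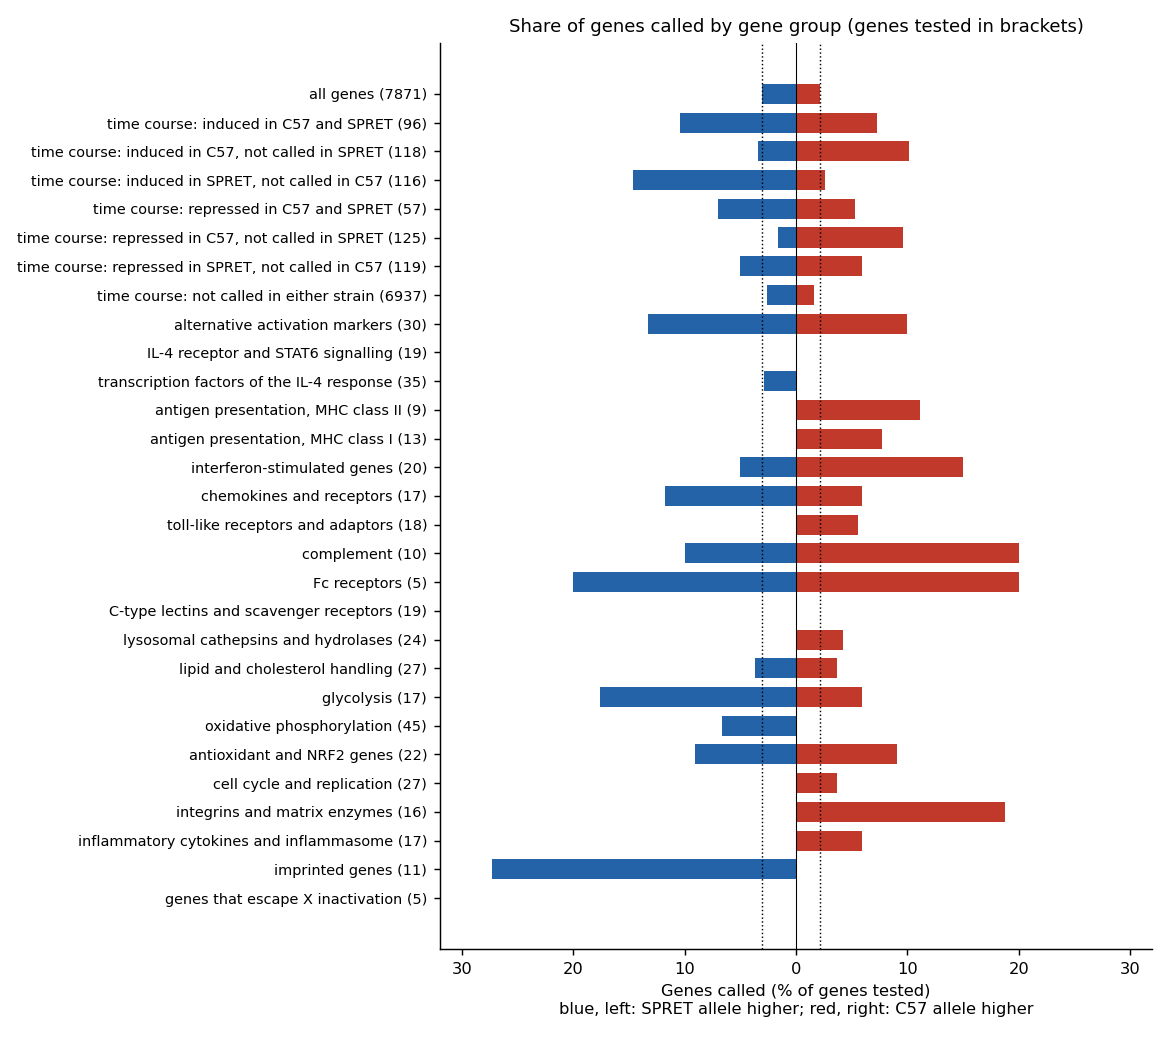
Share of genes called in each gene group (bars, % of genes tested), SPRET-higher to the left in blue and C57-higher to the right in red, with dotted lines at the shares of all genes, 3.09% and 2.12%. Numbers of genes tested are in brackets, and a bar of a small group such as the Fc receptors stands for 1 gene on each side.

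The F1 alleles were next set beside the parental strains. In separate cultures, a strain difference can come from the allele itself or from any factor that differs between the cells, and in such bulk samples fewer cells of a type and less RNA per cell cannot be told apart. Of the 7871 genes, 7512 were tested in both, and 527 (7.02%) were C57-higher and 935 (12.4%) SPRET-higher between the strains, beyond 2-fold with an adjusted p under 0.05. The median parental difference was -0.24 in these libraries and -0.03 in the time-course libraries. No test was made across the tables.

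Of the 157 C57-higher F1 genes that were tested in the parents, 101 were also C57-higher there (64.3%; 19.2% of the 527), 2 were SPRET-higher and 54 were not called. Of the 225 SPRET-higher F1 genes, 171 were SPRET-higher (76%; 18.3% of the 935), 6 were C57-higher and 48 were not called. The 171 include genes with close copies, such as Gapdh, Pgam1, Gstp1 and Atp5g1, whose values are uncertain. Of the calls of library 1 alone, 94 of 147 C57-higher and 131 of 181 SPRET-higher genes were called in the same direction in the parents. In the reverse view, 420 of the 527 and 762 of the 935 parental differences were not called between the alleles, against 7130 of all 7512 genes. Of them, 248 and 569 lay within 1.5-fold (47.1% of the 527 and 60.9% of the 935, against 82.1% of all genes). The F1 test had 2 IL-4 libraries, with smaller differences in library 2, so a gene that was not called may still differ. The median difference of the 527 genes was 1.68 between the strains and 0.52 between the alleles, and that of the 935 was -1.38 and -0.34. F1 values were scaled to the genomic span, and the log2(TPM + 1) scale narrows differences of low values. Sizes of F1 and parental differences are therefore not on one scale. Across all 7512 genes, parental and F1 differences had a Pearson r of 0.57 in library 1 and 0.35 in library 2.

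**Figure D5:**
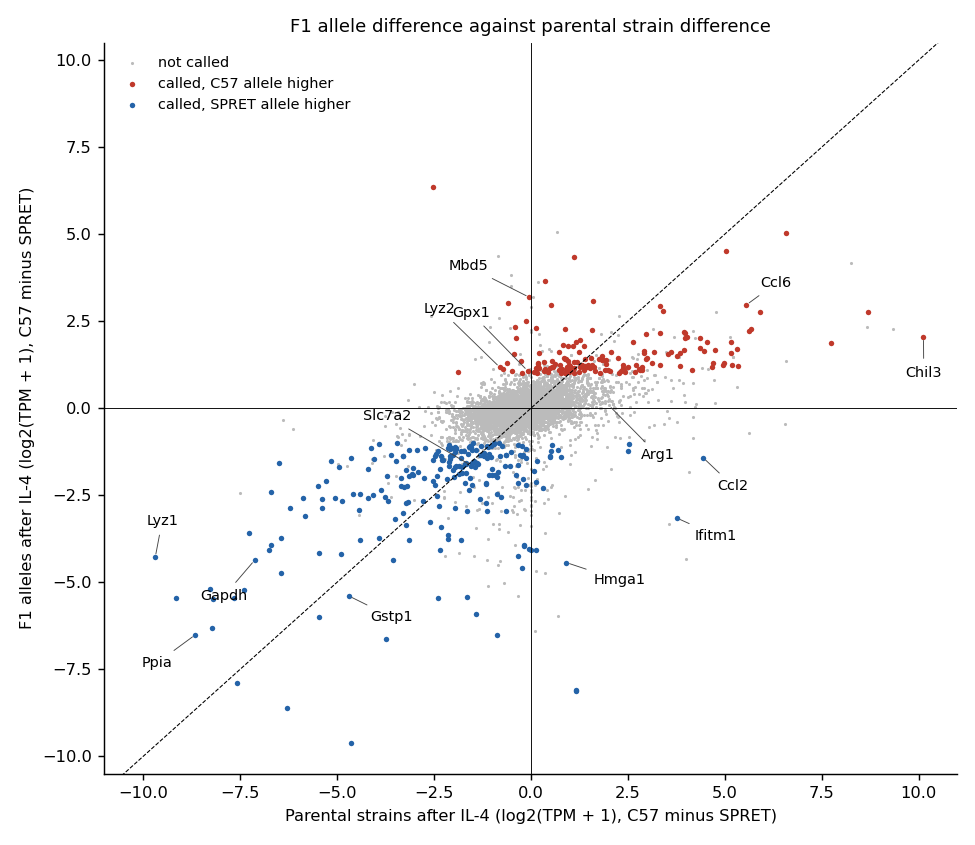
Difference between the parental strains after IL-4 (x axis) and between the F1 alleles (y axis), both as log2(TPM + 1), C57 minus SPRET; points are genes, colored where called in the F1. The dashed line marks equal differences, and Chil3 and Lyz1 lie between it and 0, while Arg1 lies near 0 on the y axis and Ccl2 and Ifitm1 on opposite sides of 0 on the 2 axes.

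Genes of lipid and cholesterol handling differed widely between the strains and little between the alleles. Of 27, 15 were SPRET-higher and 3 C57-higher between the parental strains (14 and 5 in the time-course libraries), with a median of -1.22. Over all genes, 12.4% were SPRET-higher and 7.02% C57-higher in the parents. In the F1, 15 of these 18 lipid genes lay within 1.5-fold, and the median of the 27 was 0.04. Of all genes, 82.1% lay within 1.5-fold, as did 60.9% of those SPRET-higher in the parents and 47.1% of those C57-higher. Cyp51, the lanosterol demethylase, was at 5.63 ± 1.02 TPM in C57 and 47.7 ± 1.37 in SPRET (SD, n = 3; difference -2.89), and had F1 values of 81.3 and 79.4 on C57 and 89.1 and 68.5 on SPRET (0.04 ± 0.12). The F1 alleles overlapped. Idi1 differed in both, by -2.38 and -2.80.

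For cell cycle genes, too, strain differences were not seen between the alleles. Of 27, 16 were SPRET-higher and none C57-higher in the parents (9 and 1 in the time-course libraries), with a median of -1.07. Over all genes, 12.4% were SPRET-higher there. All 16 lay within 1.5-fold between the F1 alleles, against 60.9% of all genes SPRET-higher in the parents. Mki67, a marker of dividing cells, was at 3.15 ± 0.135 TPM in C57 and 12.3 ± 0.721 in SPRET (-1.69), and its alleles had 69.3 and 73.5 on C57 and 90.8 and 82.1 on SPRET (-0.27 ± 0.11, adjusted p = 0.193). Mcm5, a subunit of the replicative helicase, had a parental difference of -2.38 and an allele difference of -0.27. Rrm2, which makes deoxyribonucleotides, had -2.29 and 0.37. Pcna, the sliding clamp of replication and a gene with processed copies, was the only call in the F1 and was not called in library 1 alone, with 309.8 and 297 on C57 and 165 and 98.2 on SPRET (1.25 ± 0.19, adjusted p = 0.0343).

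Interferon-stimulated genes were higher in parental C57 cells, with 10 of 20 called C57-higher and 0 SPRET-higher (11 and 0 in the time-course libraries), with a median of 1.04, against -0.08 between the alleles. Over all genes tested in the parents, 7.02% were C57-higher and 12.4% SPRET-higher. Of the 10, 5 lay within 1.5-fold between the alleles, near the 47.1% of all genes C57-higher in the parents. Gbp2, Isg15 and Oas1a were C57-higher in both. Irf7, the interferon regulatory factor that amplifies the response, was at 421 ± 16.4 TPM in C57 and 32.4 ± 2.84 in SPRET (3.66). Its alleles had 7.37 and 11.99 on C57 and 5.71 and 6.30 on SPRET (0.57 ± 0.16, adjusted p = 0.100). Arg1 was at 3411 ± 86.0 in C57 and 853 ± 75.1 in SPRET (2.00), against 0.09 between the alleles. Mmp12, the macrophage elastase, had a parental difference of 3.51 and an allele difference of -0.07, and Tap1, a peptide transporter of class I presentation, had 2.55 and 0.04.

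The complement genes had 9 C57-higher and 1 SPRET-higher call in the parents, with a median of 2.35 (7.02% and 12.4% of all genes). Between the alleles, 5 of these 10 lay within 1.5-fold, near the 47.1% of all genes C57-higher in the parents. C1qa had 844 ± 23.6 TPM in C57 and 1.08 ± 0.397 in SPRET (8.68, against 2.77 between the alleles). These sizes are not on one scale, since F1 values were scaled to the genomic span. The 1 added before log2 narrows differences of low values. With 0.1 added instead, the C1qa allele difference was 3.30, and with 5 it was 1.79. Other genes also differed in the same direction between the strains and between the alleles. Slc7a2 was at 136 ± 12.7 and 393 ± 8.09 (-1.53, against -1.65). Fn1 was at 5.26 ± 0.470 and 156 ± 4.57 (-4.65, against -1.43), and Ccl6 at 374 ± 30.6 and 6.96 ± 0.347 (5.55, against 2.97). Of the C57-higher genes, 76 of 157 had an allele difference within 2-fold of the parental difference, and 106 of 225 SPRET-higher genes did. Both counts depend on the listed level of a gene in the same way.

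A few genes differed in opposite directions. Ccl2 was at 106 ± 17.4 TPM in C57 and 3.88 ± 0.0823 in SPRET (4.44), whereas the SPRET allele led in the F1 (-1.42). Ifi27l2a, an interferon-inducible gene, was at 305 ± 33.3 and 52.9 ± 0.689 (2.50), and had 37.3 and 43.1 on C57 and 107 and 82.9 on SPRET (-1.21 ± 0.17, adjusted p = 0.0297). Ifitm1, a restriction factor in a cluster of close relatives, had a parental difference of 3.76 and an allele difference of -3.15 ± 0.31. Other genes differed between alleles only in the F1 by these calls. Mbd5 had 0.779 and 0.822 in the parents, Med21 20.5 and 22.4, Luc7l 11.3 and 15.01, Gpx1 1094 and 1157 and Lrpap1 493 and 536. The Mbd5 values lay below 1 TPM, near the floor of the log2(TPM + 1) scale. Bhlhe41 and Fcgr2b, with allele differences of -1.36 and 1.06, had parental differences of -0.22 and -0.50.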

How the data were processed

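Expression was analysed from the deposited TPM tables of F1 C57xSPRET BMDMs (2 basal and 2 IL-4 libraries) and of the parental strains. Per the submitters' processing notes, reads were mapped with STAR and quantified with HOMER on mm10, and DESeq2 was used by the authors. The authors made the allele TPM by multiplying transcript values with the ratio of reads overlapping mutations of each parental genome, times 10. In 99.3% of genes, the listed length equals the genomic span. The fold changes and p-values that the authors deposited beside the parental TPM were not used. Each F1 column summed to 684282 to 700521 TPM. Values of at most 200 steps were whole multiples of 1 step in 95.3% to 99.3% of cases (tolerance, 0.1 steps). The parental tables had 29 libraries (5 strains) of 7.02 M to 22.5 M tags and 16 libraries (time course) of 5.70 M to 24.0 M tags, and tests were made within a table only.

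Groups were taken from the sample labels. A pseudocount of 1 was added to the TPM before log2, and linear models with an intensity trend were fitted in limma 3.58.1 (R 4.3.3). The F1 model held all 4 libraries, with the library as a block, a mean allele difference for basal and for IL-4, and the change between them as a contrast. Parental models held a mean for each strain and condition. Benjamini-Hochberg adjustment ran over all genes tested, and a call required more than 2-fold at an adjusted p under 0.05. The models were tested on simulated data. Replicate numbers were not used to pair the libraries. Residuals of same-numbered basal and IL-4 libraries had r of 0.020 in the F1 table. Between same-numbered C57 and SPRET IL-4 libraries of the 5 strains, r was -0.069, 0.024 and -0.069. Pairing of basal and IL-4 libraries within a parental strain was not tested.

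The members and gene lists were chosen with earlier results of these data known. Named genes were those of 21 lists, those named by the study, and, among called genes with both alleles at 1 TPM or more and a mean of at least 20, the 10 with the largest difference in each direction. They further include the 6 with the highest mean and 1 allele at 0, the 5 called genes with the highest mean and 3 with an opposite parental call in each direction. Symbols of predicted genes, small RNAs and ribosomal proteins were passed over (93 called genes), except in counts. Alternatives were other pseudocounts, filters, centring, quantile normalization, fewer libraries, no trend, a robust prior, other blocks, leaving out libraries, and 4 alternatives added after the data were seen. Figures were drawn with matplotlib 3.10.9 and pandas 2.3.3 in Python 3.11.15. The Egr2 knockout, human and C57xNOD tables were not used here. Some results on single genes are withheld and not reported here.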

Additional observations from a re-analysis of the deposited data

How the results depend on the processing

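The count of 167 C57-higher and 243 SPRET-higher genes moved with the choice of genes and libraries. Without a filter on the mean, 9 and 29 genes were called among 17631, and in a model of only the 2 IL-4 libraries 104 and 180. With 1 IL-4 library left out, C57-higher counts ranged from 78 (without library 1) to 162 (without library 2) and SPRET-higher counts from 193 to 268. In a model of the separate allele columns, which drops the pairing of alleles within a library, the counts were 184 and 259. The other settings gave 121 to 230 C57-higher and 198 to 313 SPRET-higher genes, the highest with limma voom on read steps, an alternative chosen after seeing the data. Of 64 called genes that were named, none reversed in any of these settings, 57 lost the call without a filter, 40 without library 1 and 27 without library 2.

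The count of 0 genes with a changed allele difference held under other pseudocounts, centring and a replicate block (0 genes), but was 130 without IL-4 library 1 and 19 without IL-4 library 2, settings chosen after seeing the data. Leaving out a replicate number in both conditions leaves 1 library a group, and no count is given. Parental counts of 1049 and 1408 were 565 and 667 with a pseudocount of 5 and 1050 and 1409 with a replicate block, and ranged from 1034 to 1105 and from 1326 to 1499 with a replicate left out. In the time course, 344 induced and 352 repressed genes in C57 became 216 and 169 with a pseudocount of 5, and repressed genes became 585 with a pseudocount of 0.1. The 317 and 362 in SPRET became 184 and 195 with a pseudocount of 5. The replicate block gave 345, 353, 318 and 364. The cause of these shifts was not tested. As the reads behind 1 step are not stated, counting error could not be given.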
